A study of Homo sapiens with 18 samples.

Results

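Numbered zinc finger genes are the human genes named ZNF followed by a number, and 113 of them were expressed in both cell lines studied here. The members were chosen by their deposited values: a gene counted where its mean was at least 3 FPKM (fragments per unit of gene length and of mapped reads) over the 3 DMSO XG1-labelled libraries and at least 3 FPKM over the 3 AMO1 DMSO libraries. Of 529 numbered zinc finger rows among 26249 gene rows, 113 met both conditions. A further 85 reached 3 FPKM in DMSO in the XG1-labelled libraries alone, 10 in AMO1 alone, and 321 in neither. The members nearest the cutoff from above were ZNF557, with 3.01 FPKM in the XG1-labelled libraries, ZNF33A with 3.07 and ZNF75A with 3.15. The nearest genes below it were ZNF691, with 2.998 FPKM in AMO1, ZNF280D with 2.99 in AMO1 and ZNF304 with 2.97 in the XG1-labelled libraries.

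C2H2 zinc finger proteins form the most numerous family of DNA-binding proteins in the human genome. Each finger is a short loop held by a zinc ion between a pair of cysteines and a pair of histidines, and fingers in a row read neighbouring bases of DNA. Many of these proteins also carry a KRAB domain, which recruits the scaffold protein TRIM28 (KAP1) and through it the histone methyltransferase SETDB1, heterochromatin proteins and histone deacetylases, so that the bound site is silenced. Transposable elements are well-known targets. Other family members have a SCAN domain, through which they pair with one another, or work outside this pattern, for example in ribosome quality control, splicing or mitosis. Most of these genes are housekeeping-like in promoter structure and are transcribed at low levels.

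Promoters of 4 members are shown because they belong to members that lead the results below: ZNF367 and ZNF22 were lower after the inhibitor in both lines, and ZNF428 and ZNF580 were higher relative to the median gene in both. Each window is the RefSeq sequence (GRCh38.p14) from 250 bases before the gene's start to 50 after it, written 5′ to 3′ along the gene's own strand. Capitals mark matches on either strand to the GC box core GGGCGG, the CCAAT box CCAAT and the ETS core CCGGAAG.
ZNF367, chr9:96418321-96418620, minus strand: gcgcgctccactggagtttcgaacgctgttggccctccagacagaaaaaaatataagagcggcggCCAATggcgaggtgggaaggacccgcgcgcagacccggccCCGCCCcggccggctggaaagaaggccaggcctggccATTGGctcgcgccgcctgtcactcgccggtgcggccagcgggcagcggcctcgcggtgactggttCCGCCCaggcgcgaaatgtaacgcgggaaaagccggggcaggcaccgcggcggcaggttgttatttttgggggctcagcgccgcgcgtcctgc
ZNF22, chr10:45000673-45000972, plus strand: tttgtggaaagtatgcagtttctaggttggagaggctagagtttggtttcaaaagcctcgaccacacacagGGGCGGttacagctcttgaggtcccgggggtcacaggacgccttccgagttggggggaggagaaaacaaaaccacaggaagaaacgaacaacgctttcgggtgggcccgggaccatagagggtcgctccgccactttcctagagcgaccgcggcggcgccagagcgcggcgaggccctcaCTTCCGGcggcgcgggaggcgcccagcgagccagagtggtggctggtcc
ZNF428, chr19:43619580-43619879, minus strand: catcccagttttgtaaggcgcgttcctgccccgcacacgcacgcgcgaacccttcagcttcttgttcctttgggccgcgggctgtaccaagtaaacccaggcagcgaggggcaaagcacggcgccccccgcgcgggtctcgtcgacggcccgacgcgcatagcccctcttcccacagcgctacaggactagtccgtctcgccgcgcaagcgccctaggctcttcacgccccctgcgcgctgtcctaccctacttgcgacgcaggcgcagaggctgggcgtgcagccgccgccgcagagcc
ZNF580, chr19:55640752-55641051, plus strand: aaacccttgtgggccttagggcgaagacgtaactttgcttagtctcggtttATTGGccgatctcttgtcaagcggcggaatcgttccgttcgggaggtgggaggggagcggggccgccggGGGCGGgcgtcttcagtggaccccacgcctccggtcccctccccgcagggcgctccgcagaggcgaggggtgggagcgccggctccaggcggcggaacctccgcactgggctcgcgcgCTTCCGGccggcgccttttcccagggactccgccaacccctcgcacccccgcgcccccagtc
The ZNF367 window held 2 GC boxes and 2 CCAAT boxes, that of ZNF22 held 1 GC box and 1 ETS core, that of ZNF580 held 1 match to each of the 3, and that of ZNF428 held none of them. Promoters were found for 102 of the 113 members. A GC box lay in 71.6% of the member promoters, in 61.1% of 321 promoters of the other numbered zinc finger rows and in 44.6% of all 27305 RefSeq promoters of this length. The ETS core lay in 42.2% of member promoters, 38.9% of the other zinc finger promoters and 10.7% of all promoters. CCAAT lay in 44.1%, 49.5% and 35.7%. The TATA box TATAAA was rarer in members (1.96%) than in all promoters (12%), with 3.43% in the other zinc finger promoters. The core GCGCATGCG bound by NRF1 lay in 3.92% of member promoters against 2.1% of all, and the YY1 core AAGATGG in 6.86% against 6.06%. The median GC content of the windows was 64.2% in members, 60% in the other zinc finger promoters and 58.3% over all promoters. The shares of the ETS core and the GC box thus separated the family from promoters at large more than they separated members from the rest of the family. Matches are descriptions of letters and not of bound factors. The 43 members with an ETS core had a median log2 change of 0.07 relative to the median gene in AMO1 at 1000 nM of the inhibitor, and the 59 without one had 0.09.

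The libraries were 3′ messenger RNA libraries (QuantSeq) from total RNA. They came from AMO1 and cells labelled XG1, both described as human multiple myeloma cell lines and all grown in RPMI with serum. Cells received DMSO, the solvent control, or 100 nM or 1000 nM of YKL-5-124, an inhibitor of CDK7 that the labels call YKL, for 24 h, with 3 replicates in each of 6 groups and 18 libraries in all. CDK7 activates the cell cycle kinases and, as part of the general factor TFIIH, phosphorylates RNA polymerase II when transcription starts. The series title describes the lines as resistant; no resistance measurement was used here, and the labels do not say whether replicates were separate cultures, so p-values measure the spread between these samples only.

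The libraries labelled XG1 did not carry a plasma cell profile. The 10 plasma cell markers looked up, among them SDC1, IRF4 and JCHAIN, summed to 5256 to 10714 FPKM in the AMO1 libraries and to 64.5 to 145 FPKM in those labelled XG1, where 4 of 10 reached 3 FPKM in DMSO and 2 of 10 stayed under 1 FPKM in all 9 libraries. The 10 erythroid markers looked up, among them the globin gene HBG1 and GATA1, all reached 3 FPKM in the DMSO XG1-labelled libraries and summed to 2914 to 4942 FPKM there, against 2.21 to 9.33 FPKM in AMO1. Of 5 myeloid markers, 2 reached 3 FPKM in the XG1-labelled libraries and 0 in AMO1, and none of 5 T and NK cell markers did so in either. Any comparison between the lines below is therefore between AMO1 and cells with this profile, whatever their identity. Summed gene values fell from a mean of 1515077 ± 62531 FPKM (SD, n = 3) in AMO1 DMSO to 600617 ± 146062 FPKM at 1000 nM, while the summed ERCC spike-ins, RNAs added in fixed amounts, stayed between 166717 and 187657 FPKM in all libraries. Fewer cells and less RNA per cell cannot be told apart in such bulk samples. Replicate 2 at 1000 nM in AMO1 had the lowest gene sum, 431965 FPKM. Replicate 3 at 100 nM of the XG1-labelled libraries had rank correlations of 0.817 and 0.824 with its fellow replicates over all genes, which correlated at 0.956 with each other. The sources used here do not give read depth. The steps between low values put the worth of 1 read in the DMSO XG1-labelled libraries at 1.89 to 2.18 times that in AMO1 DMSO replicate 1. AMO1 DMSO replicates 2 and 3 stood at 1.339 and 1.337 times on the same measure. By this estimate a given FPKM in the DMSO XG1-labelled libraries rests on fewer reads. It is a rough one, since the commonest ratio held only 10.02% to 12.53% of the low genes in those libraries.

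Members were described from their longest proteins (GENCODE release 29), which were found for 112 of 113, ZNF271P being the exception. A KRAB domain was recognised in 41 members (36.6%), compared with 274 of 394 other numbered zinc finger rows with a protein (69.5%). Members had a median of 8 finger patterns and at most 18, the others a median of 11 and at most 39. A SCAN domain was found in 6 members. Zinc finger neighbours were counted among adjacent protein-coding genes, as genes named ZNF, ZFP, ZKSCAN or ZSCAN with a number. Of the 112 members placed on the genome, 55 had such a neighbour (49.1%), as did 71.5% of the other rows placed there. Requiring a level of 3 FPKM in both lines thus kept a set with fewer KRAB proteins, fewer fingers and fewer clustered genes. The length division in FPKM raises short genes in a 3′ library, so the cutoff favours them. The part of this in the make-up of the set was not tested. None of 6 KRAB zinc finger genes with known retroelement targets (ZNF91, ZNF93, ZNF649, ZNF417, ZNF587 and ZNF611) was a member. Of the members, 29 overlapped another protein-coding gene on the reference, and the overlaps of members described in detail are named with them below, since the files do not say whether reads were counted by strand. Reads shared between near-identical paralogs of this family are a further limit on single values, above all for KRAB genes in clusters.

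In DMSO, member means ran from 3.17 to 363 FPKM in AMO1, with a median of 7.91, and from 3.01 to 211 FPKM in the XG1-labelled libraries, with a median of 8.97. Because a 3′ library reads transcript ends whatever their length, the length division in FPKM raises the levels of short genes against those of long ones. The same 5 members led on this scale in both lines: ZNF593, ZNF207, ZNF428, ZNF581 and ZNF511. ZNF593, whose yeast counterpart works in ribosome assembly and which overlaps ZNF593OS, stood at 351, 376 and 362 FPKM in AMO1 DMSO and at 208, 207 and 219 FPKM in the DMSO XG1-labelled libraries. ZNF207 (BuGZ), a kinetochore protein that loads the checkpoint protein BUB3 in mitosis, stood at 88.9, 93.4 and 89.4 FPKM and at 99.7, 96.4 and 110.3 FPKM. Since DMSO levels chose the members, the lines are compared here as a description with no test. The mean was higher in the XG1-labelled libraries for 72 members and in AMO1 for 41, and 21 and 7 differed by more than 2-fold on those sides. The median log2 ratio of the members was 0.38. Shares over all genes were not worked out for these counts. Size factors, which follow the median gene, were 1.292 to 1.529 in the DMSO XG1-labelled libraries and 1.075 to 1.243 in AMO1 DMSO. The median gene was thus also higher there, and the lean is not read as particular to the members. ZNF280B was the most uneven member, with 2.10, 4.20 and 3.40 FPKM in AMO1 DMSO and 57.3, 52.7 and 55.1 FPKM in the DMSO XG1-labelled libraries, a log2 ratio of 4.09. ZNF687, a partner of ZMYND8 in a chromatin complex, leaned most to AMO1, with 14.3, 19.4 and 11.5 FPKM there and 3.21, 4.47 and 4.28 FPKM in the XG1-labelled libraries, a log2 ratio of -1.92 (ZNF687 overlaps PI4KB).

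**Figure D1:**
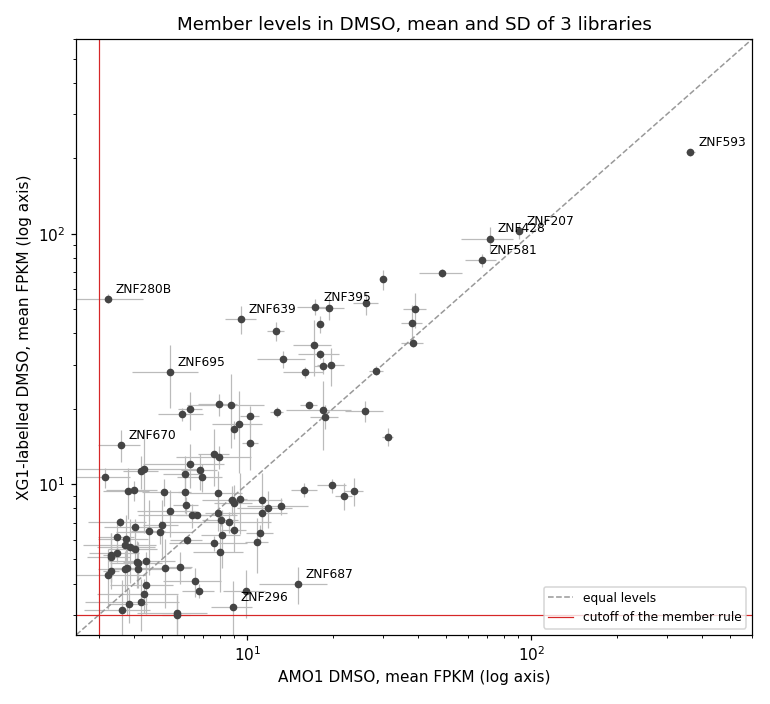
DMSO level of each of the 113 members (mean and SD of 3 libraries, FPKM, log axes) in AMO1 (horizontal) and in the XG1-labelled libraries (vertical); the dashed line marks equal levels and the red lines the cutoff of 3 FPKM. Most points lie near the dashed line, ZNF280B lies far above it at a log2 ratio of 4.09, and ZNF593 is the highest member in both.

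Changes are given on 2 scales, as differences of log2(FPKM + 1), which understate the changes of low genes. The deposited scale uses the values as they are, and there a fall is relative to the spike-ins. The relative scale first divides each library by a size factor so that the median gene does not move. A change was called where the adjusted p (limma, two-sided, Benjamini-Hochberg over all tested genes) was under 0.05. All 113 members passed the filter on low values, being chosen for their level. The DMSO libraries also chose the members, so counts against DMSO are set beside the share of all tested genes and support nothing further, and the 100 nM and 1000 nM comparisons of a line share their DMSO libraries.

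In AMO1 the members fell with the rest of the transcriptome. At 1000 nM, 82 of 113 members were lower and 0 higher than in DMSO on the deposited scale, where 65.7% of 10503 tested genes were called lower and 2.51% higher. The median member changed by -0.76 and the median tested gene by -0.77. On the relative scale 25 members were higher and 20 lower, against 24% higher and 24.2% lower over all tested genes, with medians of 0.07 and 0.02. At 100 nM, 28 members were lower and 0 higher on the deposited scale (29.5% of all tested genes lower, 2.73% higher; medians -0.35 and -0.35), and 10 were higher and 8 lower on the relative scale (14% and 17.1%; medians 0.04 and 0.01). Member counts therefore lay near the shares over all genes in each case, with the relative counts at 100 nM and the relative falls at 1000 nM below them. The deposited count of 28 at 100 nM was 9 without DMSO replicate 2, 16 without DMSO replicate 1, and 15 and 14 without 100 nM replicates 1 and 2. Rescaling to equal summed gene FPKM in place of the median gene moved the split to 27 higher and 3 lower at 100 nM. At 1000 nM it moved to 54 higher and 5 lower. For this scaling, here and below, the shares over all tested genes were not worked out. Its counts therefore have no background beside them and are not read as a rise of the members. The 5 still lower at 1000 nM were ZNF367, ZNF695, ZNF22, ZNF511 and ZNF598, 14 of the 20 relative falls no longer passed, and ZNF593 was called higher (0.21; adjusted p = 0.031). At 100 nM the 3 were ZNF367, ZNF22 and ZNF511. The members' summed share of all gene FPKM was 0.105% to 0.124% in DMSO, 0.135% to 0.150% at 100 nM and 0.154% to 0.159% at 1000 nM.

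The step from 100 nM to 1000 nM compares libraries that did not choose the members, although the DMSO libraries enter the shared error estimate and the size factors, so its p-values are not fully independent of that choice. In AMO1, 23 members were lower and 0 higher at 1000 nM than at 100 nM on the deposited scale, against 23.4% lower and 0.209% higher over all tested genes. The member median was -0.39 and the median of all tested genes -0.43. ZNF367 had the largest fall, -0.88 ± 0.16 (SE; adjusted p = 0.0057). The count was 4, 2 and 1 without 100 nM replicates 1, 2 and 3. On the relative scale ZNF580 and ZNF217 were higher and ZNF367 and ZNF593 lower, 2 members each way, against 1.74% and 4.23% of tested genes. The count of 4 was 0 to 2 with any 1 of the 6 libraries left out, and the adjusted p of these 4 genes then reached 0.10 for ZNF580, 0.073 for ZNF217, 0.077 for ZNF367 and 0.12 for ZNF593. Equal summed gene FPKM gave 4 higher and 1 lower. In the XG1-labelled libraries, limma called 0 members between the doses on either scale, where 0.0677% of 11810 tested genes were higher and 0.322% lower on the deposited scale and 0.169% and 0.804% on the relative scale. At an unadjusted p under 0.05 there were 6 members (5.31%) on the deposited and 12 (10.6%) on the relative scale. The share of all tested genes at that threshold was not worked out, so nothing is read from these 2 counts.

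Far fewer members passed in the XG1-labelled libraries. At 1000 nM, 4 were higher and 10 lower than in DMSO on the deposited scale, where 3.69% of tested genes were higher and 13.2% lower, and the medians were -0.19 for members and -0.15 for all tested genes. On the relative scale 7 were higher and 6 lower (9.57% and 10.3% of tested genes; medians -0.04 and 0.01). At 100 nM, 2 were higher and 8 lower on the deposited scale (2.48% and 10%; medians -0.22 and -0.15) and 6 higher and 5 lower on the relative scale (7.31% and 7.25%; medians -0.06 and 0.01). These shares too lay at or under those of all genes. The counts rested on few libraries: at 1000 nM the deposited count of 14 was 5 to 8 without any 1 of the 6 libraries, and the relative count of 13 was 7 to 8 without DMSO replicate 1 or 2 or without 1000 nM replicate 1 or 3. At 100 nM the deposited count of 10 was 5 without DMSO replicate 1, 4 without DMSO replicate 3 and 17 without 100 nM replicate 1, and the relative count of 11 was 6 to 7 without any 1 DMSO library. Without 100 nM replicate 3, the library that stood apart, the counts at 100 nM were 7 and 11. Equal summed gene FPKM gave 18 higher and 3 lower at 1000 nM and 8 higher and 4 lower at 100 nM, again without a share over all genes. The members' share of all gene FPKM was 0.159% to 0.163% in DMSO, 0.160% to 0.193% at 100 nM and 0.183% to 0.198% at 1000 nM.

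**Figure D2:**
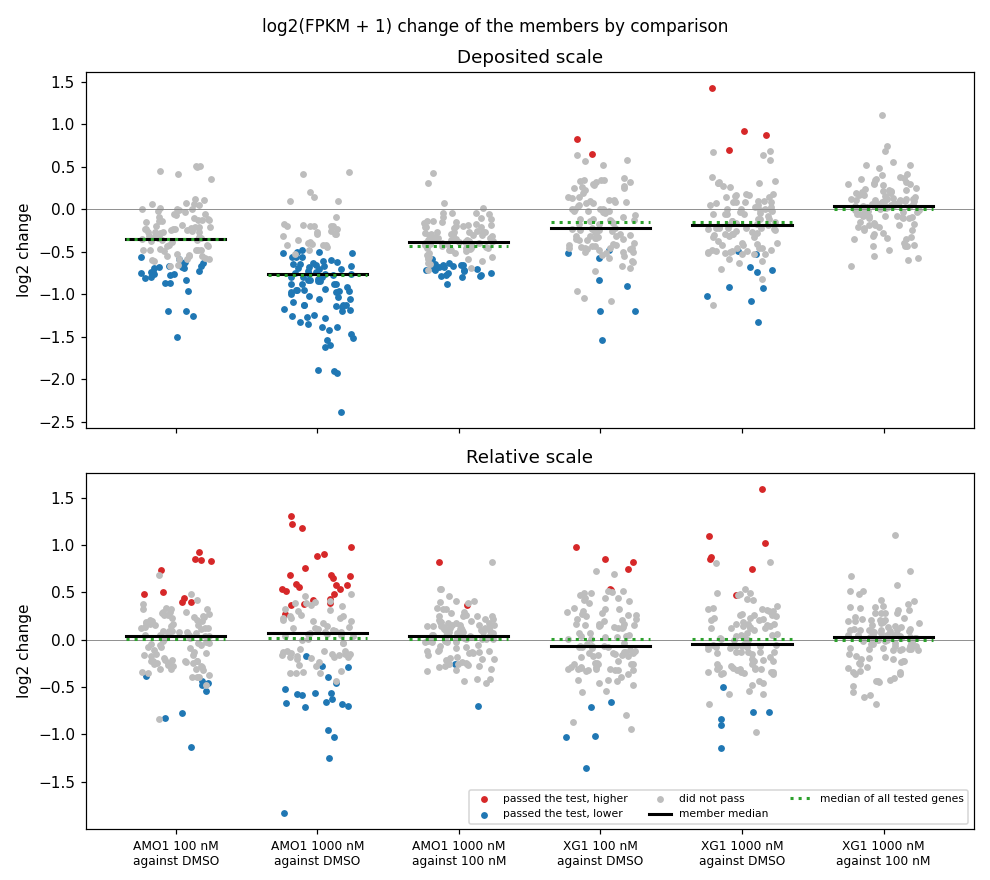
log2(FPKM + 1) change of each of the 113 members (points) in 6 comparisons, on the deposited scale (top) and the relative scale (bottom); black bars are member medians and dotted green bars medians of all tested genes. The bars lie close together in each comparison, at -0.76 and -0.77 for AMO1 at 1000 nM on the deposited scale, while single members spread widely around them.

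Against that common movement a few members stood out in both lines. ZNF367, a C2H2 DNA-binding protein with 2 finger patterns, was lower than DMSO at both doses in both lines and on both scales. It stood at 6.02, 5.71 and 6.34 FPKM in AMO1 DMSO, at 1.52, 1.41 and 1.499 FPKM at 100 nM and at 0.335, 0.398 and 0.293 FPKM at 1000 nM. The 3 AMO1 groups did not overlap. For ZNF367 the XG1-labelled libraries gave 9.22, 7.72 and 10.9 FPKM in DMSO, 5.37, 4.83 and 4.10 FPKM at 100 nM and 4.80, 5.19 and 3.34 FPKM at 1000 nM, with both doses below every DMSO library and overlapping each other. On the relative scale its change in AMO1 was -1.13 ± 0.15 (SE; adjusted p = 0.00038) at 100 nM and -1.83 ± 0.15 (adjusted p = 8.9e-06) at 1000 nM. For the XG1-labelled libraries the relative change was -0.66 ± 0.16 (adjusted p = 0.027) and -0.76 ± 0.16 (adjusted p = 0.011). The AMO1 calls held with any 1 library left out. The XG1-labelled call at 100 nM was lost in 4 of 6 such fits (DMSO replicates 1, 2 and 3 and 100 nM replicate 2 on the relative scale, adjusted p up to 0.096), and the call at 1000 nM held on the relative scale but not on the deposited scale without DMSO replicate 1 or 3 or 1000 nM replicate 3 (up to 0.069).

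ZNF22, a small finger protein first described in tooth development that overlaps the predicted gene LOC124902530, fell in dose order in both lines. It stood at 30.9, 29.3 and 30.1 FPKM in AMO1 DMSO, at 14.1, 12.2 and 10.2 FPKM at 100 nM and at 8.68, 5.41 and 7.72 FPKM at 1000 nM. The XG1-labelled libraries gave 61.5, 62.5 and 72.8 FPKM, then 48.2, 44.4 and 44.4 FPKM, then 30.9, 33.6 and 27.1 FPKM. No group overlapped another within a line. At 1000 nM its relative change was -1.02 ± 0.14 (adjusted p = 0.00022) in AMO1 and -0.90 ± 0.13 (adjusted p = 0.0016) in the XG1-labelled libraries, and both calls held with any 1 library left out. Its step between the doses did not pass on the relative scale in either line. On the deposited scale the step passed in AMO1 (-0.68 ± 0.21, adjusted p = 0.034) but not in the XG1-labelled libraries (-0.57 ± 0.14, adjusted p = 0.14).

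ZNF695, a KRAB protein with 9 finger patterns, stood at 4.25, 4.84 and 6.90 FPKM in AMO1 DMSO and at 0.555, 1.52 and 0.182 FPKM at 1000 nM, and at 20.4, 27.5 and 36.3 FPKM and 13.1, 8.39 and 9.93 FPKM in the XG1-labelled libraries. Every 1000 nM library lay below every DMSO library in both. The relative change was -1.25 ± 0.38 (adjusted p = 0.022) in AMO1, where the call was lost without DMSO replicate 3 or 1000 nM replicate 1 or 3 (adjusted p up to 0.076), and -1.15 ± 0.22 (adjusted p = 0.0070) in the XG1-labelled libraries. ZNF639 was the other member lower in both lines at 1000 nM on the relative scale, by -0.52 ± 0.15 (adjusted p = 0.015) in AMO1 and -0.50 ± 0.15 (adjusted p = 0.046) in the XG1-labelled libraries. The first of these calls was lost without DMSO replicate 1 or 1000 nM replicate 3 (up to 0.054), the second without any 1 library (up to 0.15), and neither passed after rescaling to equal summed gene FPKM. ZNF639 stood at 9.74, 10.6 and 8.24 FPKM in AMO1 DMSO and at 3.64, 2.72 and 3.04 FPKM at 1000 nM.

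Other members that led the falls in AMO1 were ZNF511, ZNF777 and ZNF598. ZNF511, which overlaps TUBGCP2 and the read-through gene ZNF511-PRAP1, stood at 51.5, 55.4 and 39.0 FPKM in DMSO and 13.7, 7.68 and 17.2 FPKM at 1000 nM, a relative change of -0.96 ± 0.15 (adjusted p = 0.0006). ZNF777, a KRAB protein, stood at 18.5, 22.7 and 18.6 FPKM and then 8.503, 4.18 and 5.70 FPKM. The relative change of ZNF777 was -0.71 ± 0.14 (adjusted p = 0.0021), and -0.36 (adjusted p = 0.057) after rescaling to equal summed gene FPKM. ZNF598 is described with the translation factors below. All 3 members had 1000 nM values below every DMSO value in AMO1, and their relative calls held with any 1 library left out. ZNF33A, which had the fifth largest relative fall among members that passed at 100 nM in AMO1 (-0.47; adjusted p = 0.043), lost its call in 4 of 6 such fits, without DMSO replicate 1 or 2 or 100 nM replicate 1 or 2 (up to 0.14).

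Members that rose relative to the median gene were often level on the deposited scale. ZNF428, which has 1 finger pattern and overlaps SRRM5, was higher at both doses in both lines on the relative scale. It stood at 70.7, 86.5 and 56.9 FPKM in AMO1 DMSO, at 96.7, 101 and 101 FPKM at 100 nM and at 99.4, 63.0 and 85.8 FPKM at 1000 nM. For ZNF428 the XG1-labelled libraries gave 105, 83.8 and 97.6 FPKM in DMSO, 153, 156 and 143 FPKM at 100 nM and 170, 140 and 154 FPKM at 1000 nM. The AMO1 1000 nM libraries overlapped DMSO, and the treated XG1-labelled libraries all lay above it. The relative change at 1000 nM was 1.18 ± 0.11 (adjusted p = 2.2e-05) in AMO1 and 0.88 ± 0.11 (adjusted p = 0.00096) in the XG1-labelled libraries. On the deposited scale the same comparisons gave 0.21 ± 0.22 (adjusted p = 0.42) and 0.69 ± 0.13 (adjusted p = 0.0044). The relative calls of ZNF428 held with any 1 library left out.

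ZNF580 and ZNF581 overlap each other on the reference and moved apart in AMO1 on the relative scale. ZNF580 stood at 8.31, 11.6 and 6.38 FPKM in AMO1 DMSO and 10.8, 10.3 and 14.4 FPKM at 1000 nM, and at 21.7, 13.5 and 26.8 FPKM and then 40.1, 33.0 and 43.4 FPKM in the XG1-labelled libraries. The relative change of ZNF580 at 1000 nM was 1.31 ± 0.18 (adjusted p = 0.00029) in AMO1 and 1.10 ± 0.22 (adjusted p = 0.0078) in the XG1-labelled libraries. ZNF581 went from 61.6, 76.5 and 62.5 FPKM to 28.1, 18.1 and 22.8 FPKM in AMO1, a relative change of -0.56 ± 0.10 (adjusted p = 0.0012) that did not pass after rescaling to equal summed gene FPKM. The ZNF581 change in the XG1-labelled libraries was -0.30 ± 0.13 on the relative scale, where it did not pass (adjusted p = 0.13), and -0.49 ± 0.14 on the deposited scale (adjusted p = 0.037). The deposited call was lost in 5 of 6 fits, all but the one without 1000 nM replicate 1 (up to 0.13). Because the pair overlap and strand use is not stated, how reads were divided between them is not known, and both values are uncertain. The ZNF580 call at 100 nM in the XG1-labelled libraries (0.82; adjusted p = 0.036) was lost in 4 of 6 fits, without DMSO replicate 1 or 2 or 100 nM replicate 2 or 3 (up to 0.11).

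ZNF789, a KRAB protein that overlaps ZNF394, had the largest relative rise in the XG1-labelled libraries. It stood there at 9.26, 17.4 and 7.87 FPKM in DMSO and at 38.4, 23.1 and 33.0 FPKM at 1000 nM, with no overlap, a change of 1.60 ± 0.30 (adjusted p = 0.0060) on the relative and 1.43 ± 0.30 (adjusted p = 0.0079) on the deposited scale. In AMO1 ZNF789 stood at 1.82, 4.89 and 6.32 FPKM and then 7.16, 3.79 and 6.64 FPKM, overlapping, with a relative change of 1.23 ± 0.27 (adjusted p = 0.0042). ZNF101 and ZNF276 completed the 5 members higher in both lines at 1000 nM on the relative scale. ZNF101 changed by 0.66 ± 0.13 (adjusted p = 0.0023) in AMO1 and 0.47 ± 0.14 (adjusted p = 0.041) in the XG1-labelled libraries, where the call was lost without any 1 library (up to 0.14). For ZNF276, which overlaps FANCA and VPS9D1, the relative change in AMO1 was 0.27 ± 0.09 (adjusted p = 0.026) but the deposited change was -0.66 ± 0.21 (adjusted p = 0.011). The relative call was lost without DMSO replicate 2 or 3 or 1000 nM replicate 1 or 2 (up to 0.097), and the call in the XG1-labelled libraries (0.85; adjusted p = 0.031) was lost without any 1 library (up to 0.098). ZNF101 at 100 nM in the XG1-labelled libraries was lost in 5 of 6 fits, all but the one without 100 nM replicate 1 (up to 0.11).

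Among the other relative rises in AMO1, ZNF226, ZNF18 and ZNF354A passed at both doses. ZNF226, a KRAB protein with 17 finger patterns, changed by 0.84 ± 0.13 (adjusted p = 0.00091) at 100 nM and 0.99 ± 0.13 (adjusted p = 0.00017) at 1000 nM. ZNF18, a SCAN protein that overlaps MAP2K4, changed by 0.73 ± 0.14 (adjusted p = 0.0035) and 0.91 ± 0.14 (adjusted p = 0.00057). ZNF354A, a KRAB protein, stood at 3.13, 4.51 and 4.46 FPKM in DMSO, 6.11, 6.59 and 5.56 FPKM at 100 nM and 3.38, 2.95 and 3.81 FPKM at 1000 nM. Its relative change was 0.84 ± 0.14 (adjusted p = 0.0019) and 0.58 ± 0.14 (adjusted p = 0.0078). The deposited changes of ZNF226, ZNF18 and ZNF354A did not pass at either dose, and their relative calls at 100 nM held with any 1 library left out.

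**Figure D3:**
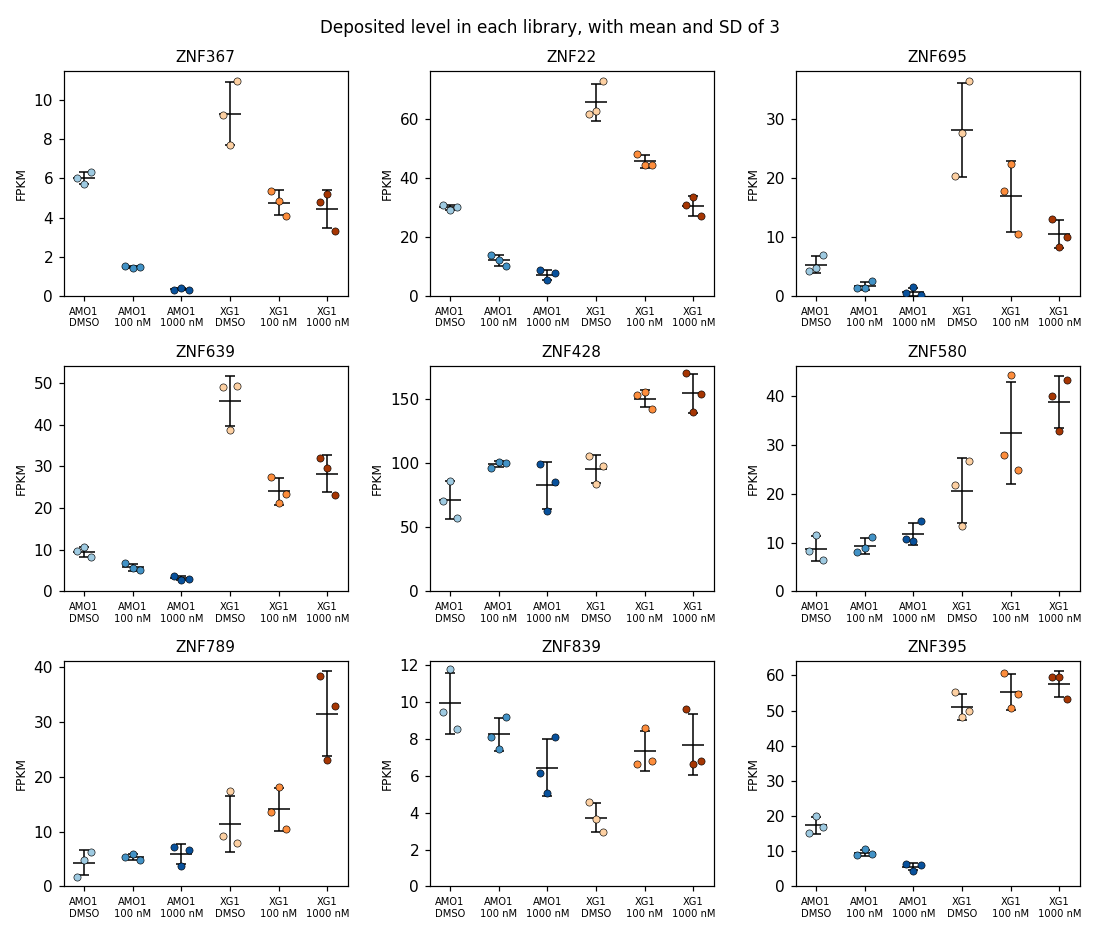
Deposited level (FPKM) of 9 members in each of the 18 libraries (points), with the mean and SD of 3 replicates, by line and dose of YKL-5-124. ZNF367, ZNF22, ZNF695 and ZNF639 lie below DMSO at 1000 nM in both lines, ZNF428, ZNF580 and ZNF789 hold or rise, ZNF839 moves in opposite directions in the lines, and ZNF395 falls in AMO1.

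In the XG1-labelled libraries, ZNF146, ZNF143 and ZNF430 had the largest falls among members that passed at 100 nM. ZNF146, which consists almost wholly of fingers and overlaps ZNF565, stood at 50.3, 49.0 and 59.0 FPKM in DMSO, 29.7, 13.8 and 12.7 FPKM at 100 nM and 27.9, 30.1 and 19.6 FPKM at 1000 nM. The relative change was -1.35 ± 0.25 (adjusted p = 0.0087) at 100 nM and -0.83 ± 0.25 (adjusted p = 0.042) at 1000 nM. The second of these calls was lost in 5 of 6 fits, all but the one without 1000 nM replicate 2 (up to 0.13), and did not pass after rescaling to equal summed gene FPKM. ZNF143, an activator that binds the promoters of many housekeeping and small nuclear RNA genes, stood at 9.80, 13.3 and 16.6 FPKM in DMSO, 5.08, 5.38 and 4.76 FPKM at 100 nM and 6.24, 7.998 and 8.40 FPKM at 1000 nM, with every treated library below DMSO. Its relative change was -1.02 ± 0.20 (adjusted p = 0.010) at 100 nM and -0.54 ± 0.20 (adjusted p = 0.080) at 1000 nM. ZNF430, a KRAB protein, changed by -1.02 ± 0.18 (adjusted p = 0.0076) at 100 nM. ZNF639 changed by -0.71 ± 0.15 (adjusted p = 0.016) at 100 nM, and that call was lost without DMSO replicate 1 or 3 (up to 0.060). ZNF107, called lower at 1000 nM (-0.77; adjusted p = 0.046), lost its call without any 1 library (up to 0.13) and after rescaling to equal summed gene FPKM. Without 100 nM replicate 3 the relative changes at 100 nM were -1.26 for ZNF146 and -1.10 for ZNF143.

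In the XG1-labelled libraries ZNF839 rose at both doses, and ZNF524 rose at 100 nM on the relative scale alone. ZNF839, in whose protein no finger pattern was found, stood at 4.57, 3.66 and 2.96 FPKM in DMSO, 6.61, 8.56 and 6.78 FPKM at 100 nM and 9.59, 6.65 and 6.81 FPKM at 1000 nM, with every treated library above DMSO. The relative change was 0.98 ± 0.19 (adjusted p = 0.012) at 100 nM and 1.02 ± 0.19 (adjusted p = 0.0063) at 1000 nM, and both held with any 1 library left out. In AMO1 ZNF839 stood at 9.47, 11.8 and 8.51 FPKM in DMSO and 6.13, 5.05 and 8.11 FPKM at 1000 nM. It was thus the only member called in opposite directions in the lines on the deposited scale at 1000 nM, lower by -0.56 ± 0.21 (adjusted p = 0.025) in AMO1 and higher by 0.87 ± 0.22 (adjusted p = 0.020) in the XG1-labelled libraries. The first call was lost without DMSO replicate 1 or 2 or 1000 nM replicate 1 or 2 (up to 0.11), the second without DMSO replicate 2 or 3 or 1000 nM replicate 1 (up to 0.082), and on the relative scale ZNF839 was not called in AMO1 (0.31 ± 0.13; adjusted p = 0.072). ZNF524 rose at 100 nM by 0.75 ± 0.15 (adjusted p = 0.011) on the relative scale. Its deposited change there was 0.57 ± 0.22 (adjusted p = 0.11), and 100 nM replicate 3, at 16.16 FPKM, lay within the DMSO range of 10.85 to 16.55 FPKM. At 1000 nM ZNF524 passed on neither scale in those libraries (0.14 deposited, adjusted p = 0.72, and 0.32 relative, adjusted p = 0.16). On the relative scale it was also called higher in AMO1 at 100 nM (0.44 ± 0.13, adjusted p = 0.026). That call was lost without DMSO replicate 2 or 100 nM replicate 1 or 2 (up to 0.098).

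The difference between the lines' responses was tested directly, as the change in the XG1-labelled libraries minus the change in AMO1. At 1000 nM, 30 members had a difference above 0 and 0 below on the deposited scale, against 32.8% and 1.5% of 12792 tested genes, with medians of 0.60 for members and 0.55 for all. The count was 19 without AMO1 1000 nM replicate 2. On the relative scale 5 were above and 10 below (8.47% and 8.22%), and the count of 15 was 9 without DMSO replicate 3 of the XG1-labelled libraries or without AMO1 DMSO replicate 1. At 100 nM, 3 were above and 1 below on the deposited scale (5.37% and 0.86%) and 3 above and 5 below on the relative scale (5.94% and 3.66%). The count of 4 was 1 or 2 without DMSO replicate 2 or 3 of the XG1-labelled libraries or without AMO1 DMSO replicate 1 or 2 or AMO1 100 nM replicate 1 or 2. The count of 8 was 3 to 5 in the 9 fits that left out 1 of the 6 AMO1 libraries, DMSO replicate 2 or 3 or 100 nM replicate 3 of the XG1-labelled libraries. Equal summed gene FPKM gave 1 above and 4 below at 100 nM.

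At 1000 nM the relative difference was largest for ZNF367, 1.23 ± 0.21 (adjusted p = 0.00079), which fell in both lines and further in AMO1. ZNF48, which overlaps SEPTIN1, differed by 1.07 ± 0.21 (adjusted p = 0.0022). It stood at 12.2, 16.7 and 10.6 FPKM in AMO1 DMSO and at 3.57, 3.31 and 4.64 FPKM at 1000 nM, and at 7.396, 8.54 and 8.51 FPKM and then 11.9, 8.88 and 9.23 FPKM in the XG1-labelled libraries. ZNF395, a factor linked to hypoxia and interferon responses, differed by 0.91 ± 0.16 (adjusted p = 0.0013). It stood at 15.2, 19.9 and 17.0 FPKM in AMO1 DMSO and 6.43, 4.53 and 5.97 FPKM at 1000 nM, and at 55.3, 48.2 and 49.8 FPKM and then 59.7, 59.6 and 53.2 FPKM in the XG1-labelled libraries. In both genes the AMO1 groups were apart, and the change at 1000 nM in the XG1-labelled libraries did not pass. The differences of ZNF367, ZNF48 and ZNF395 at 1000 nM held with any 1 library left out.

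On the other side, ZNF296, ZNF92, ZNF189 and ZNF275 had the lowest relative differences among members that passed at 1000 nM. ZNF296, ZNF92 and ZNF189 were called higher than DMSO in AMO1 on that scale, ZNF275 was not (0.39 ± 0.16; adjusted p = 0.066), and none of the 4 passed in the XG1-labelled libraries. ZNF189, a KRAB protein with 16 finger patterns, stood at 3.65, 4.84 and 4.22 FPKM in AMO1 DMSO, 5.86, 6.96 and 6.56 FPKM at 100 nM and 5.14, 3.60 and 5.08 FPKM at 1000 nM. For ZNF189 the XG1-labelled libraries gave 9.95, 10.6 and 13.1 FPKM, then 8.21, 8.90 and 5.53 FPKM, then 11.7, 7.94 and 10.1 FPKM. The ZNF189 difference was -1.26 (adjusted p = 0.00025) at 100 nM and -0.96 ± 0.17 (adjusted p = 0.0013) at 1000 nM, and held with any 1 library left out. ZNF275 differed by -0.89 ± 0.23 (adjusted p = 0.015), with the same stability. ZNF296, which overlaps GEMIN7, differed by -1.17 ± 0.33 (adjusted p = 0.025) and lost the call without DMSO replicate 1 or 3 of the XG1-labelled libraries, AMO1 DMSO replicate 1 or AMO1 1000 nM replicate 3 (up to 0.064). ZNF92 differed by -0.98 ± 0.27 (adjusted p = 0.020) and lost it without DMSO replicate 1 of the XG1-labelled libraries or AMO1 DMSO replicate 2 (up to 0.054).

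**Figure D4:**
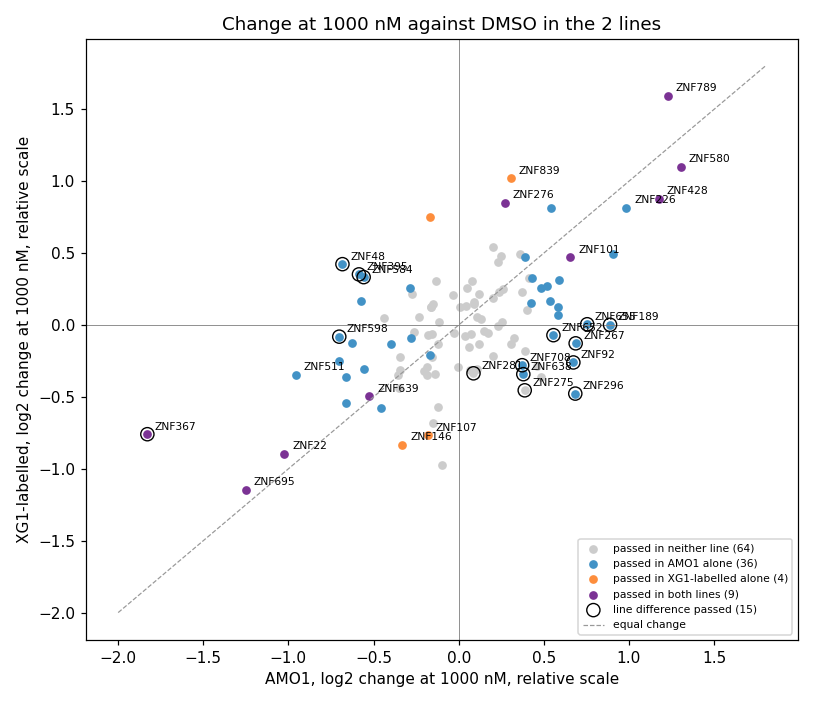
Relative log2 change of each member at 1000 nM against DMSO in AMO1 (horizontal) and in the XG1-labelled libraries (vertical); colours show in which line the change passed the test and rings mark the 15 members whose line difference passed. ZNF367, ZNF22, ZNF639 and ZNF695 lie low in both, ZNF101, ZNF276, ZNF428, ZNF580 and ZNF789 high in both, and 64 members passed in neither line. Calls were not crossed between the lines over all tested genes.

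By role, the members that act on RNA and translation moved mostly with the median gene. Of 7 such members, 6 were lower at 1000 nM in AMO1 on the deposited scale, and on the relative scale ZNF598 and ZNF593 were lower and ZNF638 higher. Over all tested genes 65.7% were lower on the deposited scale, and 24.2% were lower and 24% higher on the relative scale, so these counts lay near the background. ZNF598, the ubiquitin ligase that marks ribosomes when they collide, stood at 30.6, 32.8 and 30.1 FPKM in AMO1 DMSO, 16.5, 13.4 and 16.8 FPKM at 100 nM and 10.1, 6.95 and 11.9 FPKM at 1000 nM, 3 groups without overlap. Its relative change was -0.54 ± 0.11 (adjusted p = 0.0044) at 100 nM and -0.70 ± 0.11 (adjusted p = 0.00056) at 1000 nM, and both held with any 1 library left out. ZNF598 in the XG1-labelled libraries stood at 15.7, 16.5 and 14.1 FPKM in DMSO and 13.5, 11.9 and 12.8 FPKM at 1000 nM (relative change -0.08 ± 0.14), and the line difference of 0.59 ± 0.17 passed (adjusted p = 0.025). That difference was lost without DMSO or 1000 nM replicate 3 of the XG1-labelled libraries, AMO1 DMSO replicate 1 or AMO1 1000 nM replicate 1 (up to 0.065), and after rescaling to equal summed gene FPKM (adjusted p = 0.097). ZNF593 changed by only -0.17 ± 0.06 on the relative scale in AMO1 at 1000 nM (adjusted p = 0.050 after rounding), a call lost in 5 of 6 fits, all but the one without DMSO replicate 2 (up to 0.14). ZNF638, an RNA-binding nuclear matrix protein, changed by 0.38 ± 0.14 (adjusted p = 0.046) and lost the call in 5 of 6 fits, all but the one without 1000 nM replicate 2 (up to 0.15). ZNF622, which acts in the maturation of the large ribosomal subunit, ZNF346, which binds double-stranded RNA, ZNF326, a subunit of the DBIRD complex, and ZNF830, a spliceosome-associated protein, had relative changes between -0.16 and 0.09 at that dose, and none passed. None of the 7 passed in the XG1-labelled libraries at either dose on either scale. Over all tested genes there, 2.48% were higher and 10% lower at 100 nM on the deposited scale, and 3.69% and 13.2% at 1000 nM. On the relative scale these shares were 7.31% and 7.25% at 100 nM, and 9.57% and 10.3% at 1000 nM.

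Of 6 members in chromatin complexes, 4 were lower at 1000 nM in AMO1 on the deposited scale and 2 were higher on the relative scale, against 65.7% and 24% of all tested genes. The latter were ZNF217, an oncoprotein that works with CtBP and CoREST, by 0.52 ± 0.08 (adjusted p = 0.00041), and ZNF687, by 0.43 ± 0.14 (adjusted p = 0.027), a call lost without DMSO replicate 1 or 3 or 1000 nM replicate 2 or 3 (up to 0.093). ZNF217 stood at 21.6, 23.6 and 20.5 FPKM in AMO1 DMSO and 19.0, 12.1 and 18.2 FPKM at 1000 nM. ZNF644, which guides the methyltransferases EHMT1 and EHMT2, changed by -1.14 ± 0.24 (adjusted p = 0.00097) on the deposited scale and by -0.44 ± 0.19 on the relative scale, where it did not pass (adjusted p = 0.079). ZNF335, ZNF451 and ZNF410 (which overlaps FAM161B) had relative changes of 0.11, 0.01 and -0.23, and none passed. None of the 6 passed in the XG1-labelled libraries at either dose. The shares of all tested genes there ran from 2.48% to 3.69% higher and from 10% to 13.2% lower on the deposited scale. They ran from 7.31% to 9.57% higher and from 7.25% to 10.3% lower on the relative scale.

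Of 7 members with single known roles, all were lower at 1000 nM in AMO1 on the deposited scale, and ZNF143, ZNF76 and ZNF395 were lower on the relative scale, against 65.7% and 24.2% of all tested genes. ZNF143 stood at 7.25, 8.76 and 6.98 FPKM in AMO1 DMSO, 4.13, 3.99 and 4.03 FPKM at 100 nM and 3.22, 1.36 and 2.33 FPKM at 1000 nM, without overlap, a relative change of -0.66 ± 0.13 (adjusted p = 0.0028) at the higher dose. ZNF76, the close relative of ZNF143, changed by -0.29 ± 0.10 (adjusted p = 0.037), a call lost in 5 of 6 fits, all but the one without DMSO replicate 3 (up to 0.12). The relative calls of ZNF143, ZNF76 and ZNF395 did not pass after rescaling to equal summed gene FPKM, and ZNF76 then stood at 0.07. ZNF207, ZNF281, ZNF24 and ZNF148 had relative changes of -0.16, 0.09, -0.00 and 0.20 in AMO1 at 1000 nM and did not pass. In the XG1-labelled libraries, ZNF143 at 100 nM was the one relative call among the 7 at either dose. Over all tested genes there, 7.31% were higher and 7.25% lower at 100 nM on that scale, and 9.57% and 10.3% at 1000 nM.

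The KRAB members and the others had similar medians. At 1000 nM in AMO1 the 41 KRAB members had a median relative change of 0.06, with 12 higher and 6 lower. The 71 members with no KRAB domain found had 0.08, with 12 higher and 14 lower. Over all tested genes 24% were higher and 24.2% lower. Medians in the XG1-labelled libraries were 0.00 and -0.05, with 3 higher and 2 lower and with 4 higher and 4 lower. The shares over all tested genes there were 9.57% higher and 10.3% lower. The 10 members with 0 or 1 finger pattern had a median relative change of -0.16 in AMO1 at 1000 nM, those with 2 to 6 had 0.09, those with 7 to 10 had 0.08 and those with 11 or more had 0.05. These medians are descriptions and were not tested against each other. Levels differed too, with an AMO1 DMSO median of 5.64 FPKM for KRAB members and 9.91 FPKM for those without. It was 34.6 FPKM for 0 or 1 finger pattern, and 8.9, 6.8 and 5.9 FPKM in the other finger classes in order. The length division in FPKM raises short genes, and its part in these levels was not tested. Since log2(FPKM + 1) understates the changes of low genes, the classes are not on an equal footing.

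Genes listed for the silencing machinery around KRAB proteins were lower in AMO1 on the deposited scale. All 27 listed corepressor genes were called lower at 1000 nM on the deposited scale. The median there was -1.08 against -0.77 for all tested genes. On the relative scale 10 were lower and 0 higher, with a median of -0.13 against 0.02. The shares over all tested genes were 65.7% lower on the deposited scale, and 24.2% lower and 24% higher on the relative scale. TRIM28, the KRAB scaffold, averaged 25.5 FPKM in AMO1 DMSO, 14.3 at 100 nM and 6.55 at 1000 nM, a relative change of -0.92 (adjusted p = 0.00026). SETDB1 averaged 97.7 FPKM, 61.5 and 46.1, which was -1.08 on the deposited scale (adjusted p = 0.00037) and -0.12 on the relative scale (adjusted p = 0.21). CBX3, a heterochromatin protein, and UHRF1 and SUV39H1, which act in DNA and histone methylation, changed by more than 1 on both scales in AMO1. The relative changes were -1.13 (adjusted p = 5.7e-07), -2.42 (adjusted p = 3.5e-06) and -1.25 (adjusted p = 0.00014). CBX3 averaged 621 FPKM in AMO1 DMSO and 146 FPKM at 1000 nM. UHRF1 averaged 8.60 and 0.237 FPKM and SUV39H1 3.67 and 0.351 FPKM, so both ended under the 1 FPKM used as a filter. In the XG1-labelled libraries, 4 of the 27 were lower at 1000 nM on the deposited scale, and on the relative scale 3 were lower and 1 higher, against 13.2% lower, and 10.3% lower and 9.57% higher, over all tested genes. TRIM28 averaged 47.8 FPKM in DMSO and 31.6 FPKM at 1000 nM there, a relative change of -0.40 (adjusted p = 0.12), and the relative change of CBX3 was -0.66 (adjusted p = 0.0018). The line difference at 1000 nM passed for 14 of the 27 above 0 on the deposited scale and for 5 above and 0 below 0 on the relative scale, against 32.8% above, and 8.47% above and 8.22% below, over all tested genes. CHD4, the known target gene of ZNF410 and itself a corepressor subunit, averaged 89.5 FPKM in AMO1 DMSO and 38.3 at 1000 nM (relative change -0.26; adjusted p = 0.022).

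The remaining members are shown together with those named. At 1000 nM in AMO1, 9 members passed on neither scale (ZNF140, ZNF174, ZNF275, ZNF358, ZNF37A, ZNF398, ZNF579, ZNF714 and ZNF775), 59 were lower on the deposited scale alone, 22 were higher on the relative scale alone, 20 were lower on both, and ZNF276, ZNF316 and ZNF708 were lower on the deposited and higher on the relative scale. In the XG1-labelled libraries, 96 members passed on neither scale at that dose. Such crossed counts were made for the members only, so no share over all tested genes stands beside them. Scale by scale, 65.7% of tested genes in AMO1 were lower on the deposited scale. On the relative scale 24% were higher and 24.2% lower there.

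**Figure D5:**
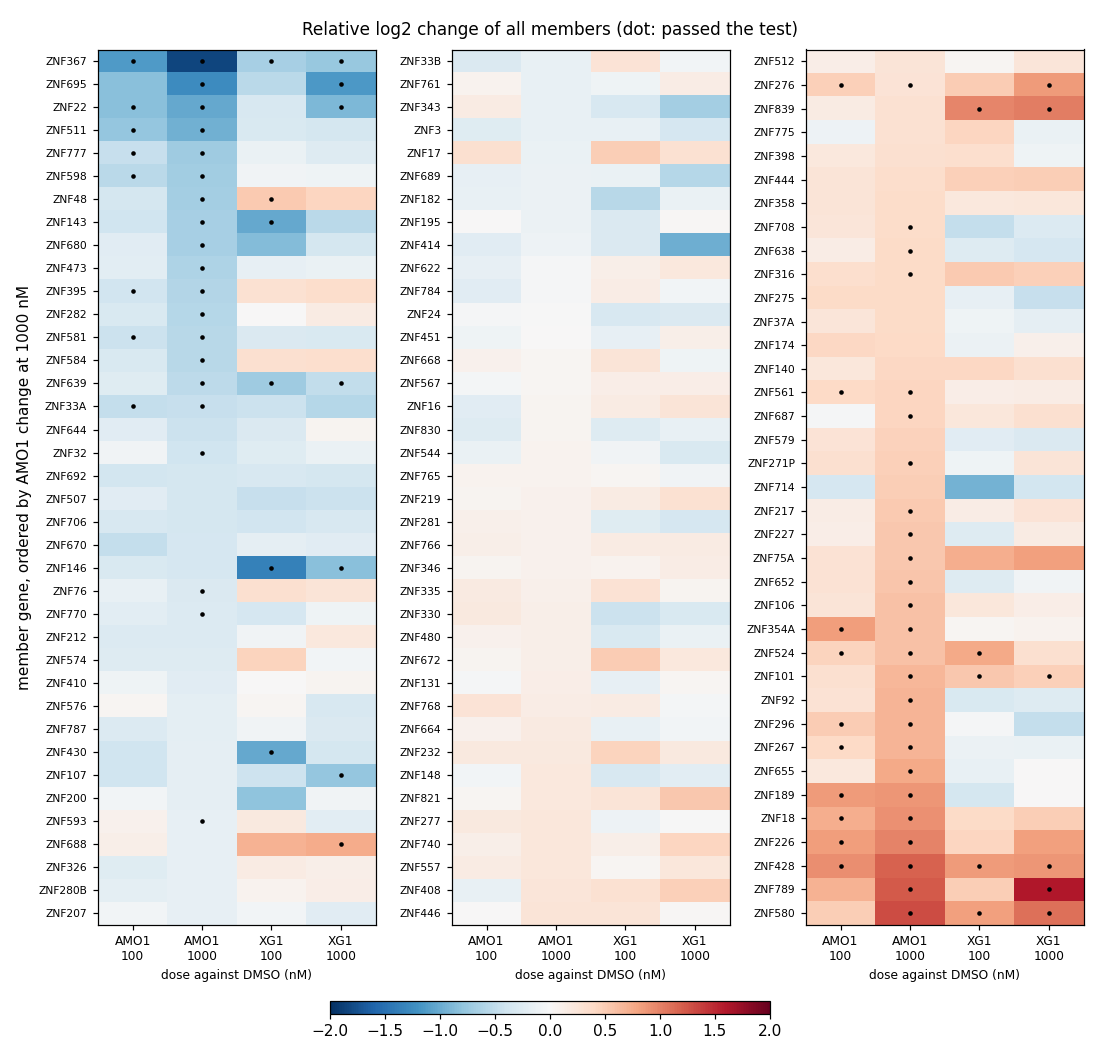
Relative log2 change (colour, from blue for lower to red for higher) of all 113 members against DMSO at 100 nM and 1000 nM in AMO1 and in the XG1-labelled libraries, ordered by the AMO1 change at 1000 nM; dots mark changes that passed the test. In AMO1 at 1000 nM the dots collect at both ends, with 20 lower and 25 higher members, and in the XG1-labelled libraries they are sparse, with 6 lower and 7 higher at the same dose.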

How the data were processed

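QuantSeq 3′ messenger RNA libraries from 2 lines described as multiple myeloma, AMO1 and cells labelled XG1, were deposited as 1 table of gene FPKM values per library. Reads were handled with HISAT2, Cuffnorm and the build hg19, per the submitters' processing notes, and the sources used here give no versions, depth or strand use. The deposited FPKM values hold 26249 gene rows and 92 ERCC spike-in rows, and the ERCC sums are nearly equal across libraries.

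The test was limma 3.58.1 (R 4.3.3) on log2(FPKM + 1), keeping genes that reached 1 FPKM in 3 or more libraries of the fit, with a trended prior, two-sided, and Benjamini-Hochberg adjustment over all tested genes at 0.05. Each line was fitted on its own 9 libraries, and the line difference on all 18. The relative scale divides by median-ratio size factors. DMSO libraries chose the members, and the members and lists were chosen with earlier results of these data known. Named genes are the 5 largest called relative changes each way per dose comparison, the 4 largest each way per line difference, the 5 highest in DMSO, members with known roles, corepressors by rule, and the cutoff neighbours. Others were named after their values were seen: ZNF581, ZNF101 and ZNF276 in AMO1, ZNF639 at 1000 nM, ZNF524 in AMO1, ZNF839 in AMO1, ZNF695, ZNF22 and CHD4 where outside that rule, ZNF652, and ZNF280B. Protein features and overlaps came from GENCODE and RefSeq tables, and promoters from RefSeq (GRCh38.p14), matched by symbol. Alternatives were other scalings, another pseudocount, no filter, no trend, the replicate number as a block, other member cutoffs and each library left out. The limma script was tested on simulated data. Figures used matplotlib 3.10.9 under Python 3.11.15 with pandas 2.3.3.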

Additional observations from a re-analysis of the deposited data

Results flagged for a closer look

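These results were picked out because the response of a member differed between the lines by the test of the difference itself (limma over 18 libraries, relative scale, change in the XG1-labelled libraries minus change in AMO1, 3 libraries in each group). The XG1-labelled libraries carried erythroid and few plasma cell markers, and the part of this in the differences was not tested.

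At 100 nM the 3 differences above 0 were 0.85 for ZNF48, 0.75 for ZNF839 and 0.67 for ZNF395. The 4 lowest of 5 below 0 were -1.26 for ZNF189, -1.06 for ZNF146, -0.75 for ZNF708 and -0.66 for ZNF330. The calls of ZNF48, ZNF395 and ZNF189 held with any 1 of the 12 libraries left out. Those of ZNF839, ZNF146, ZNF708 and ZNF330 were lost in 10, 11, 11 and 8 of the 12 fits, with adjusted p up to 0.12, 0.11, 0.11 and 0.10.

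At 1000 nM the 4 highest of 5 differences above 0 were 1.23 for ZNF367, 1.07 for ZNF48, 0.91 for ZNF395 and 0.87 for ZNF584. The 4 lowest of 10 below 0 were -1.17 for ZNF296, -0.98 for ZNF92, -0.96 for ZNF189 and -0.89 for ZNF275. ZNF584 lost its call in 7 of 12 fits, with adjusted p up to 0.097. ZNF48, ZNF395, ZNF189, ZNF708 and ZNF652 passed at both doses, which share their DMSO libraries. ZNF708 was at -0.70 at 1000 nM, a call lost in 11 of 12 fits with adjusted p up to 0.11, and ZNF652 was at -0.58 and -0.69 at the lower and higher dose, with the first call lost in 2 of 12 fits (up to 0.055).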

How the results depend on the processing

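The counts of members called kept within 1.5 times of the main count for all 16 comparisons and scales with a pseudocount of 0.1 and with members chosen over all 9 libraries of each line. On the deposited scale, no filter on low values gave 10 in place of 28 members for AMO1 at 100 nM, 1 in place of 23 for AMO1 between the doses, 5 and 6 in place of 10 and 14 for the XG1-labelled libraries at 100 and 1000 nM, and 1 in place of 4 for the line difference at 100 nM; on the relative scale it gave 1 in place of 4 between the doses in AMO1, 7 and 7 in place of 11 and 13, and 4 in place of 8. Equal summed gene FPKM gave 30 in place of 18 (AMO1, 100 nM), 21 in place of 13 (XG1, 1000 nM) and 5 in place of 8 (line difference, 100 nM), and equal summed ERCC gave 9 in place of 23 between the doses in AMO1. A prior variance without trend gave 5 in place of 8 for the line difference at 100 nM on the relative scale. A cutoff of 6 FPKM, which leaves 63 members, gave 51 in place of 82 (AMO1, 1000 nM, deposited scale), 8 in place of 13 (XG1, 1000 nM, relative scale), and 2 and 5 in place of 4 and 8 (line difference, 100 nM). The latter are raw counts from a smaller set, so a lower count need not mean that a lower share was called.

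The replicate block, for numbers shared by the labels, gave 11 and 0 in place of 23 and 4 between the doses in AMO1, 6 and 9 in place of 10 and 14 on the deposited scale for XG1 at 100 and 1000 nM, and 2 in place of 4 for the line difference at 100 nM. Same-numbered libraries correlated between -0.173 and 0.116 in AMO1 and between -0.043 and 0.144 in XG1, so the numbers were not taken to pair the samples.

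With 1 library left out, the deposited counts ran from 9 to 27 and 63 to 83 in AMO1 at 100 and 1000 nM, 1 to 31 between its doses, 4 to 17 and 5 to 8 in XG1, and 1 to 6 and 19 to 34 for the line differences. The relative counts ran from 14 to 17, 30 to 39, 0 to 2, 6 to 12, 7 to 9, 3 to 8 and 9 to 14 in the same order. The step between doses in XG1 gave 0 throughout. Where a count moved the cause was not tested. For the genes named by their largest changes, 232 recomputed values lost the call, 3 gained it and 1243 kept the same status. None turned direction where either fit passed, and other changes of sign were not counted. Outside that set ZNF593 in AMO1 at 1000 nM went from -0.17 to 0.21 on the log2 scale with equal summed gene FPKM. Depth is unknown, so low members such as ZNF695 and ZNF367 after treatment have no counting interval.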
